A study of Mus musculus with 2 samples.

Results

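Haemoglobin-rich barcodes were taken from single-cell RNA sequencing of the newborn mouse ovary as erythroid cells, the red blood cell lineage. A barcode, the tag that stands for 1 cell, was included when the alpha chain genes Hba-a1 and Hba-a2 and the beta chain genes Hbb-bs and Hbb-bt together gave at least 1000 of every 10,000 of its UMIs, the unique molecular identifiers that count RNA molecules. This rule took in 747 of 10096 barcodes. Of these, 693 of 4819 were in the library labelled DEHP_MLT and 54 of 5277 in the library labelled MLT. Haemoglobin RNA itself chose the members, so its levels are given below as a description, and so are the levels of all other genes in the members against the other barcodes.

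The tissue was the ovary of C57BL pups at postnatal day 3. In the DEHP_MLT group the mothers were gavaged with the plasticizer DEHP and given melatonin (MLT) later each day, from E16.5, an embryonic stage in days, up to postnatal day 3. The mothers of the MLT group were given DMSO instead of DEHP, and melatonin as well, so both groups carry melatonin. There was 1 library of the 10x Genomics 3' assay per group, how many pups stand behind each is not in the labels, and no difference between the groups has a replicate check. The titles of the samples and the names of their tables conflict, each table being named for the other group. The titles are followed here, and every direction between the libraries would turn round if the table names were right.

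Adult haemoglobin is built from alpha and beta globin chains, each of which holds a haem group, and red cell precursors make globin and haem in step. As background, erythroblasts first divide while they begin to make haemoglobin, then leave the cell cycle, condense and expel the nucleus, and become reticulocytes, which lose ribosomes and mitochondria and carry RNA that is mostly globin. Blood of newborn mice holds many reticulocytes, and red cells enter dissociated tissue with its blood.

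Haemoglobin-rich barcodes made up 14.4% of the library labelled DEHP_MLT (exact Clopper-Pearson 95% interval 13.4 to 15.4) and 1.02% of the library labelled MLT (0.770 to 1.33). The log2 ratio of these shares, DEHP_MLT over MLT, was 3.81 (3.41 to 4.24), and it was 4.24 when members with low Alas2 and Slc4a1, described below, were left out. All intervals here cover counting error only. The members held 7.08% of all UMIs in DEHP_MLT and 1.03% in MLT. The libraries were not cut at the same depth. The lowest barcode total was 6923 UMIs and 1002 genes in DEHP_MLT, and 2031 UMIs and 801 genes in MLT. The floor on genes touched the members most, since 79 of the 693 DEHP_MLT members and none of the 4126 other DEHP_MLT barcodes lay under 1100 genes, and in MLT 23 of 54 members and 33 of 5223 other barcodes did. With the DEHP_MLT gene floor applied to both libraries, a check chosen after seeing the data, 693 members remained in DEHP_MLT and 34 in MLT, and the log2 ratio of shares was 4.47.

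Haemoglobin RNA was also found outside the members, at levels that differed between the libraries, and its source was not tested. Barcodes outside the rule had a median of 57.0 haemoglobin UMIs per 10,000 in DEHP_MLT (quartiles 50.1 and 65.5) and 4.47 in MLT (3.14 and 6.52). Members held 80.3% of all haemoglobin UMIs in DEHP_MLT and 90.7% in MLT. Near the threshold, 13 DEHP_MLT barcodes lay between 900 and 1000 per 10,000 and 10 between 1000 and 1100, while MLT had none in either range. The values just outside and just inside the rule were 988 and 1007 in DEHP_MLT, and 849 and 1262 in MLT. The 2 libraries shared 4 barcode sequences, of which 1 was a member in DEHP_MLT and none in MLT.

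**Figure D1:**
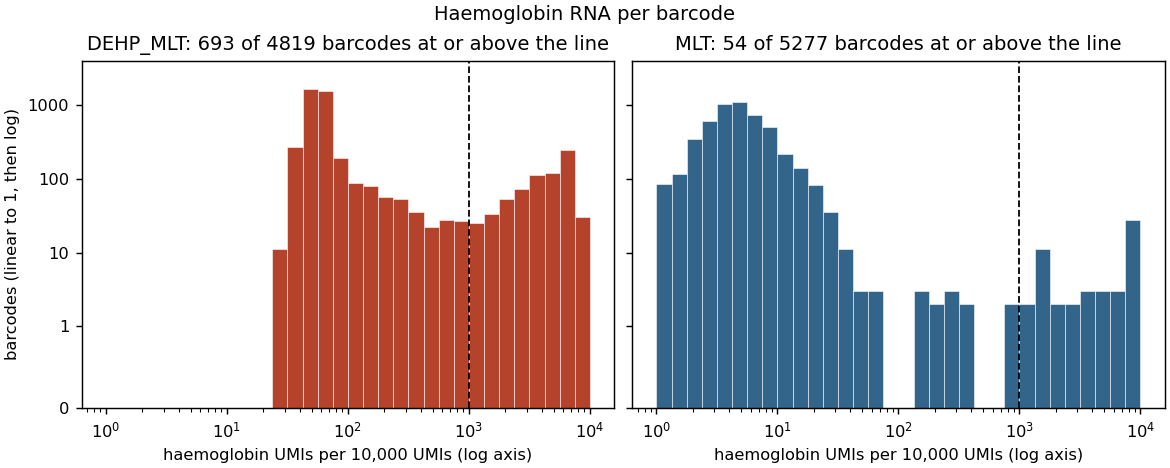
Barcodes (vertical axis, linear up to 1 and then logarithmic) by haemoglobin UMIs per 10,000 UMIs (horizontal log axis) in the library labelled DEHP_MLT, left, and the library labelled MLT, right. Barcodes under 1 per 10,000 are not drawn, and the dashed line is the threshold of 1000. The bulk of barcodes sits around a median of 57.0 in DEHP_MLT and 4.47 in MLT, and 693 and 54 barcodes lie at or above the line.

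The 2 libraries held different parts of the haemoglobin range. The median haemoglobin share of members was 47.7% of UMIs in DEHP_MLT and 75.9% in MLT. Members with 10 to 25%, 25 to 50%, 50 to 75% and over 75% haemoglobin numbered 126, 241, 296 and 30 in DEHP_MLT, and 15, 7, 4 and 28 in MLT. The top range thus held 4.33% of members in DEHP_MLT and 51.9% in MLT. No DEHP_MLT barcode had under 1002 genes, whereas median genes in the MLT top range were 900. All MLT members under 1002 genes lay in that range, so the top ranges of the libraries were not cut alike. Only that top range has more than 20 barcodes in MLT, and MLT values in the lower ranges rest on 15, 7 and 4 barcodes.

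The label was checked against Alas2, the first enzyme of haem synthesis in red cells, and Slc4a1, the band 3 anion exchanger of the red cell membrane. Levels of genes other than haemoglobin are given throughout as UMIs per 10,000 non-haemoglobin UMIs, summed over the barcodes of a range, so that the haemoglobin share does not lower every other gene. An Alas2 UMI was found in 99.9% of DEHP_MLT members, against 36.5% of the other DEHP_MLT barcodes, and in 90.7% of MLT members, against 1.19% of the other MLT barcodes. A Slc4a1 UMI was found in 93.9% of members and 25.8% of other barcodes in DEHP_MLT, and in 55.6% of members and 0.191% of other barcodes in MLT. Median depth was 10110 UMIs in members and 13990 in other barcodes of DEHP_MLT, and 11834 in members and 10810 in other barcodes of MLT. The summed level of the 2 genes reached 10 in 674 of 693 DEHP_MLT members and in 39 of 54 MLT members. All 19 DEHP_MLT members below that level had 10 to 25% haemoglobin, as had all 15 in MLT, which are all the MLT members in that range. The data therefore go against the erythroid label for these 19 DEHP_MLT and 15 MLT barcodes, which are called here by the rule that chose them. For the other members this level alone does not settle the label. The 7 MLT members of 25 to 50% haemoglobin all reached it, but had a median of 4649 genes, against 3677 in other MLT barcodes.

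Markers of other ovarian cells were present in members of both libraries. The summed level of 30 markers of germ, granulosa, stroma, surface, endothelial and perivascular cells reached 10 in 409 of 693 DEHP_MLT members (59.0%) and in 52 of 54 MLT members (96.3%), against 97.1% of other barcodes in DEHP_MLT and 97.4% in MLT. Its median over barcodes was 12.5 in members and 65.7 in other barcodes of DEHP_MLT, and 42.8 in members and 73.0 in other barcodes of MLT. Along the 4 ranges of DEHP_MLT this median was 23.0, 9.28, 14.7 and 18.9. The level reached 10 in 54.0, 44.4, 69.6 and 93.3% of the barcodes of those ranges, so it did not fall steadily with haemoglobin share. Stroma markers, 5 genes led by Col3a1 and Col1a2, summed in DEHP_MLT to 30.6, 22.1, 9.78 and 8.53 along the 4 ranges and to 25.6 in other barcodes. Their median over DEHP_MLT barcodes was 3.22, 3.24, 3.91 and 6.49, under the sums in each range. In MLT the stroma sums were 34.1, 30.5, 18.8 and 12.5. Endothelial markers in MLT reached 22.0 in the 7 barcodes of 25 to 50% haemoglobin, against 2.04 in other MLT barcodes, and 0.509 in the same range of DEHP_MLT. Neutrophil markers in DEHP_MLT reached 51.9 in the range of 25 to 50%, where their median over barcodes was 1.46, and 10 DEHP_MLT members had a neutrophil level of 50 or more, against none in MLT. Macrophage and platelet markers stayed at or below 2.48 in each range of both libraries. Whether these barcodes hold a red cell together with another cell was not tested.

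**Figure D2:**
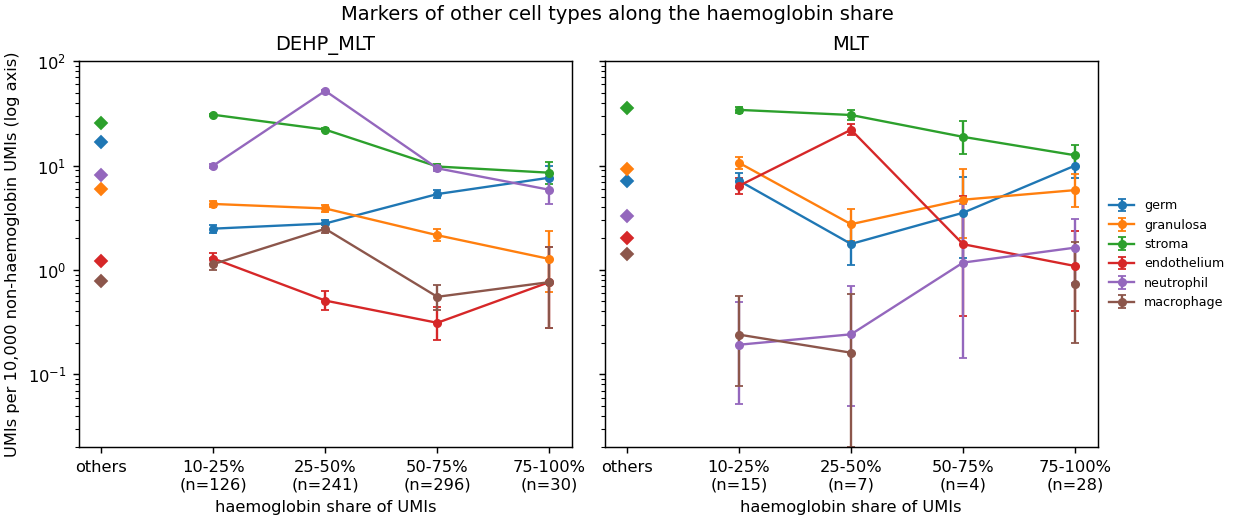
Summed levels of markers of 6 other cell types in UMIs per 10,000 non-haemoglobin UMIs (log axis) by haemoglobin share, in the library labelled DEHP_MLT, left, and the library labelled MLT, right. Points are sums over the barcodes of a range with exact Poisson 95% intervals, diamonds are all other barcodes, n is the number of barcodes, and a level of 0 is not drawn. Neutrophil markers peak at 51.9 in DEHP_MLT between 25 and 50% haemoglobin, and endothelial markers at 22.0 in the same range of MLT.

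Summed over all members, the globin genes had broadly similar proportions in both libraries. Hbb-bs gave 50.1% of the members' haemoglobin UMIs in DEHP_MLT and 48.2% in MLT, and Hbb-bt 12.5% in DEHP_MLT and 15.4% in MLT. Hba-a1 gave 24.8% in DEHP_MLT and 20.9% in MLT, and Hba-a2 12.6% in DEHP_MLT and 15.5% in MLT. The ratio of alpha to beta UMIs was 0.598 in DEHP_MLT members and 0.572 in MLT members, and 0.580, 0.585, 0.602 and 0.644 along the 4 ranges of DEHP_MLT. Along the ranges of MLT it was 0.447, 0.521, 0.520 and 0.609, from 15, 7, 4 and 28 barcodes. Hba-a1 and Hba-a2 are near-identical copies, and Hbb-bs and Hbb-bt are close relatives, so the split within each pair depends on how reads that fit both copies were counted. The proportions outside the members were alike, with Hbb-bs at 51.0% in other barcodes of DEHP_MLT and 53.6% in MLT. Of the embryonic globins, only Hbb-y was among the genes analysed, with 4 UMIs in DEHP_MLT, 3 of them in members, against 4372320 UMIs of the 4 adult genes in that library.

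The promoters of the haemoglobin genes and Alas2, whose RNA marks these barcodes, are shown for the short letters they share. The sequences are RefSeq's, build GRCm38.p6, and cover the 250 bases before each start, on the strand of the gene. Capitals mark matches on either strand. They are matches to GATAA, the core bound by the factor GATA1. They are also matches to CACCC, which the factor KLF1 binds. The third kind is CCAAT, and the fourth is TATAA, known from many promoters.
Hbb-bs: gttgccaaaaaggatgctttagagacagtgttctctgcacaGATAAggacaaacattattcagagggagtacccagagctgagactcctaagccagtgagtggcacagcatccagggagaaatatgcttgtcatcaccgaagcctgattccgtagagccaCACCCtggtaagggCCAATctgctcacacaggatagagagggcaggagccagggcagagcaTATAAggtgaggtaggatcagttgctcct
Hbb-bt: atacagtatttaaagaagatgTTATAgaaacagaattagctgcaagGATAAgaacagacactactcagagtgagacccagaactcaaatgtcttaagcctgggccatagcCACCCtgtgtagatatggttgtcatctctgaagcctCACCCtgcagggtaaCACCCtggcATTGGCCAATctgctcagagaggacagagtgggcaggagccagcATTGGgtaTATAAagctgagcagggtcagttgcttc
Hba-a1: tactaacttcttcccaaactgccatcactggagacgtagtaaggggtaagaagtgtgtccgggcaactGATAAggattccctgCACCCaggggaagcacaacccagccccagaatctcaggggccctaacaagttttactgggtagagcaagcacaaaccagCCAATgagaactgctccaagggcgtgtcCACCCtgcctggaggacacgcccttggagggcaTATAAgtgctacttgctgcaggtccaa
Alas2: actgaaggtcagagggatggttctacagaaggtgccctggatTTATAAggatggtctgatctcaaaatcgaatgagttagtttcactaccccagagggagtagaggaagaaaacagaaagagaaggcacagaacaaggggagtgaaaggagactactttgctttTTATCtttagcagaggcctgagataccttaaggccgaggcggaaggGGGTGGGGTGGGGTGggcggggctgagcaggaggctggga
Hbb-bs lies on the minus strand at chr7:103827929-103828178, Hbb-bt on the minus strand at chr7:103813924-103814173, Hba-a1 on the plus strand at chr11:32283422-32283671 and Alas2 on the plus strand at chrX:150547167-150547416. The GATA1 core GATAA has 1 match in each of the 4. The KLF1 letters CACCC have 1 match in Hbb-bs, 3 in Hbb-bt, 2 in Hba-a1 and 3 in Alas2. CCAAT has 1 match in Hbb-bs and in Hba-a1, 3 in Hbb-bt and none in Alas2. TATAA begins 29, 28 and 27 bases before the start in Hbb-bs, Hbb-bt and Hba-a1, and in Alas2 its 2 matches overlap, forward and reverse, at over 200 bases away. Among all 32851 RefSeq promoters of this length, 22.6% hold the GATA1 core, 52.0% the KLF1 letters, 33.8% the CCAAT box and 22.8% the TATA letters, and the letters were chosen after these sequences had been seen. The Hba-a2 window was 97.6% identical to that of Hba-a1, and the Hbb-bt window 70.9% identical to that of Hbb-bs.

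Barcodes with more haemoglobin held fewer genes. Median genes per barcode along the 4 ranges were 3365, 2248, 1236 and 1060 in DEHP_MLT, against 4092 in other barcodes of that library. In MLT they were 2354, 4649, 1777 and 900, against 3677 in other barcodes, so the 7 MLT barcodes of 25 to 50% broke that order. Spearman's rho between haemoglobin share and genes per barcode was -0.905 over 693 DEHP_MLT members and -0.884 over 54 MLT members, as a description, since both are read from the same UMIs of a barcode. After each barcode was thinned to 1000 non-haemoglobin UMIs, with no barcode lost, median genes were 614, 623, 579 and 549.5 in DEHP_MLT, against 649 in other barcodes, and 693, 649, 632 and 589.5 in MLT, against 676 in other barcodes. At equal depth the ranges thus differed far less than in the raw gene counts. Mitochondrial genes made up 3.46, 2.40, 2.50 and 2.83% of non-haemoglobin UMIs along the ranges of DEHP_MLT, against 5.29% in other barcodes, and 3.29% in the top range of MLT, against 5.08%. Ribosomal protein genes made up 27.0, 19.3, 14.4 and 15.7% of non-haemoglobin UMIs along the ranges of DEHP_MLT, against 24.7% in other barcodes, and 17.1% in the top range of MLT, against 21.2%.

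**Figure D3:**
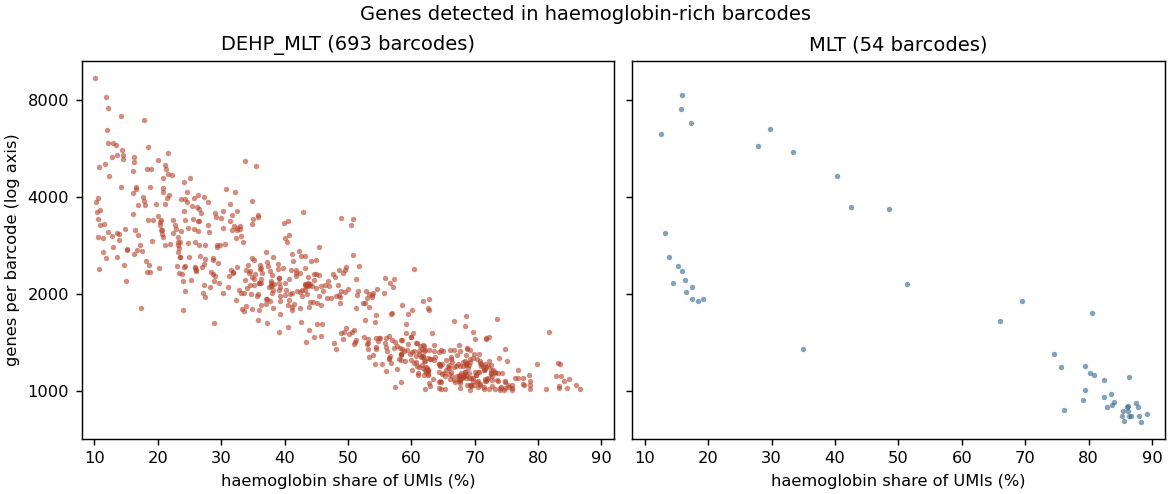
Genes detected per member barcode (log axis) against haemoglobin share of UMIs in percent, in the library labelled DEHP_MLT, left, and the library labelled MLT, right, 1 point per barcode. Barcodes with more haemoglobin hold fewer genes in both panels, and the lower edge lies at 1002 genes in DEHP_MLT and 801 in MLT.

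The summed level of haem synthesis genes stood higher with each step of haemoglobin share in DEHP_MLT. The summed level of the 9 genes was 50.7 (exact Poisson 95% interval 49.7 to 51.7), 120.3 (118.7 to 121.9), 219.5 (216.6 to 222.4) and 236.1 (225.5 to 247.1) along the 4 ranges, against 4.64 in other DEHP_MLT barcodes. In MLT it was 9.12, 26.3, 154.6 and 152.6 (142.4 to 163.2 in the top range), against 2.95 in other barcodes. The median over DEHP_MLT barcodes was 58.0, 144.2, 232.1 and 232.8, so it hardly differed between the 2 highest ranges. Barcodes of the lowest range varied widely, with quartiles of 18.8 and 91.5. To compare within a library, the tertile of DEHP_MLT members with the highest haemoglobin share (over 60.7%) was set against the lowest tertile (under 35.9%), with a gene counted as past the fold when it was at least 1.5-fold apart, reached a level of 0.5 in either tertile and had Poisson intervals apart. Of 8 haem synthesis genes measured above that level, 6 were higher in the upper tertile and none lower, with a median log2 ratio of 1.60. Over all 3419 genes so measured, 21.5% were higher and 45.2% lower, with a median of -0.53. The haemoglobin share ordered these cells, so nothing is read from the comparison beyond its values.

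The enzymes of the pathway did not move as one. Alas2 had the steepest course in DEHP_MLT, with 12.6, 32.2, 85.3 and 146.8 along the ranges, and in MLT it had 3.94, 16.52, 55.3 and 105.9. Fech, which inserts iron into the finished ring, also stood highest in the top range, with 4.27, 10.2, 19.2 and 27.4 in DEHP_MLT, and in MLT with 0.912, 4.11, 15.9 and 24.5. These are the first and the last step of the pathway. The other steps described here peaked earlier. Alad, which joins the first intermediates, had 6.19, 14.8, 9.09 and 2.55 in DEHP_MLT, and Cpox, a later oxidase, 6.63, 15.9, 11.0 and 4.84, so both were highest at 25 to 50% haemoglobin. Urod, a decarboxylase, was highest at 50 to 75%, with 6.58, 12.9, 26.5 and 21.9 in DEHP_MLT. Uros, which closes the ring, had 1.15, 2.87, 3.44 and 0.127, and Ppox, the next oxidase, 2.21, 5.997, 8.06 and 4.33, in DEHP_MLT. Alas1, the form of the first enzyme used outside red cells, stayed at or below 0.135 in each range of DEHP_MLT, against 0.161 in its other barcodes. In the top range Fech was 27.4 (23.8 to 31.3) in DEHP_MLT and 24.5 (20.6 to 29.0) in MLT.

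**Figure D4:**
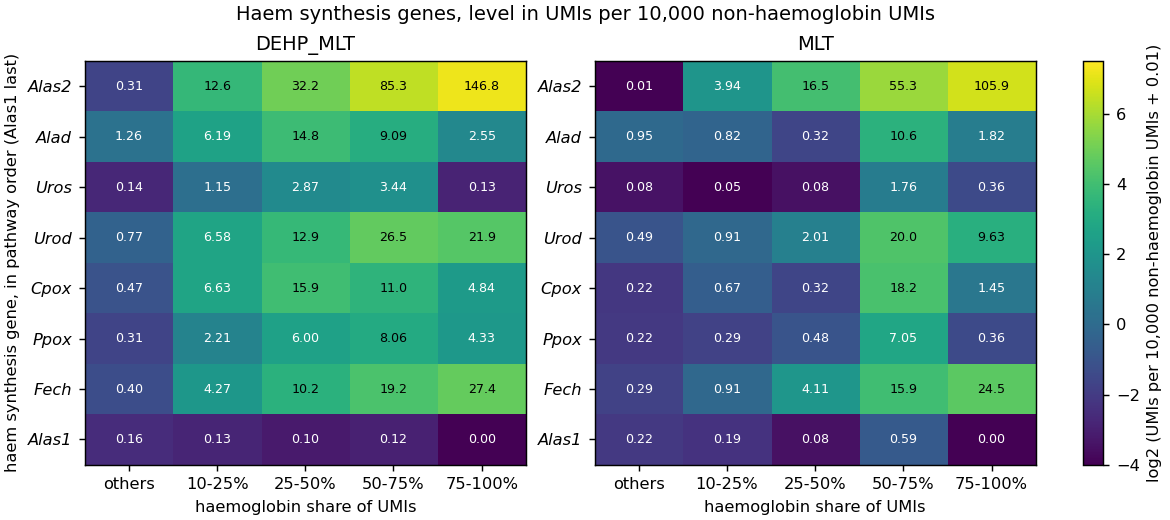
Levels of 8 haem synthesis genes, in UMIs per 10,000 non-haemoglobin UMIs, in other barcodes and along the haemoglobin share, in the library labelled DEHP_MLT, left, and the library labelled MLT, right. Colour is log2 of the level after adding 0.01, and genes run in pathway order from the top with Alas1 last. Alas2 and Fech are highest in the top range of DEHP_MLT, at 146.8 and 27.4, whereas Alad and Cpox are highest at 25 to 50%, at 14.8 and 15.9.

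Iron handling genes were mixed. Of 13 measured above the minimum, 6 were higher and 3 lower in the upper tertile of DEHP_MLT. Over all genes measured between these tertiles, 21.5% were higher and 45.2% lower. Slc25a37, mitoferrin, which carries iron into mitochondria, had 4.38, 13.5, 21.3 and 15.5 along the DEHP_MLT ranges, and Tfrc, the transferrin receptor, 5.18, 12.9, 14.2 and 6.49. The porphyrin transporter Tmem14c had 11.6, 12.2, 4.42 and 3.69. Ftl1, the ferritin light chain, had 24.4, 28.1, 55.9 and 105.2 in DEHP_MLT and 163.3 in the top range of MLT, and Fth1, the heavy chain, 41.6, 59.7, 42.2 and 80.4 in DEHP_MLT and 107.2 in the top range of MLT. Both ferritin chains were thus lower in DEHP_MLT than in MLT at the top of the range.

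Genes for red cell enzymes and partners of haemoglobin stood higher with haemoglobin share. In the upper tertile of DEHP_MLT 9 of 12 measured were higher and none lower, with a median log2 ratio of 1.76. The shares over all genes measured were 21.5% higher and 45.2% lower. Bpgm, which makes the metabolite that lowers the oxygen affinity of haemoglobin, had 2.98, 5.27, 36.4 and 92.3 in DEHP_MLT, and in MLT 3.46, 11.6, 31.2 and 132.8. Gpx1, glutathione peroxidase, had 32.8, 80.2, 192.1 and 291.6 in DEHP_MLT, and in MLT 6.34, 15.3, 118.2 and 155.3. Prdx2, the peroxiredoxin of red cells, had 33.3, 72.2, 88.7 and 102.3 in DEHP_MLT and 93.9 in the top range of MLT. The hexokinase gene Hk1 did not follow, with 0.695, 1.46, 1.09 and 0 in DEHP_MLT.

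Red cell membrane genes followed the same order up to 75% haemoglobin and then stood lower. The list of 23 summed to 57.9, 150.2, 214.1 and 177.9 in DEHP_MLT and to 13.3, 23.4, 173.4 and 106.8 in MLT. In the upper tertile of DEHP_MLT 17 of 22 measured were higher and 1 lower, against 21.5 and 45.2% of all genes measured. Slc4a1 had 8.06, 23.1, 41.2 and 33.2 in DEHP_MLT, against 0.192 in other barcodes. In the top range of MLT Slc4a1 was 15.8. Epb41, the membrane skeleton protein 4.1, had 1.77, 3.43, 14.3 and 15.7 in DEHP_MLT, while Aqp1, a water channel, had 3.06, 6.80, 2.78 and 0.127.

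Genes of late maturation and organelle clearance had a median log2 ratio of 2.36, the highest of the 7 erythroid lists. In the upper tertile of DEHP_MLT 20 of 23 were higher and 2 lower, against 21.5 and 45.2% of all genes measured. The list summed to 88.4, 149.9, 409.7 and 570.1 (553.5 to 587.1) in DEHP_MLT, against 61.0 in other barcodes. In MLT it summed to 72.8, 101.6, 264.5 and 557.6 (538.0 to 577.6), against 56.7. Ubb, a ubiquitin gene, had 33.2, 47.7, 138.2 and 236.6 in DEHP_MLT, and Ube2l6, a conjugating enzyme for the ubiquitin-like ISG15, 6.06, 14.9, 39.4 and 56.0. Xpo7, a nuclear exportin, had 0.757, 1.20, 19.3 and 8.40. Hemgn, a nuclear protein of erythroid progenitors placed in this list, went the other way, with 4.48, 10.9, 4.18 and 0.637. In the top range Ubb was 236.6 in DEHP_MLT and 205.4 in MLT.

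Erythroid transcription factors were highest in the middle of the range. Their sum was 22.5, 45.2, 51.8 and 23.9 in DEHP_MLT, and 7 of 15 were higher and 4 lower in its upper tertile. Of all genes measured there, 21.5% were higher and 45.2% lower. Klf1, the erythroid Kruppel-like factor, had 3.09, 7.66, 6.38 and 1.78 in DEHP_MLT and 0.363 in the top range of MLT. Gata1, the central erythroid factor, had 0.949, 1.995, 1.60 and 0.891 in DEHP_MLT and no UMI in any MLT member. Lmo2 had 2.55, 5.67, 9.31 and 4.202, and Gfi1b, a repressor, 1.09, 1.23, 0.312 and 0.127, in DEHP_MLT. Of the erythropoietin signalling genes, Pim1, a survival kinase, had 1.99, 4.82, 19.1 and 13.1 in DEHP_MLT, and Bcl2l1, which encodes BCL-XL and protects late erythroblasts, 0.617, 1.13, 8.99 and 8.66.

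**Figure D5:**
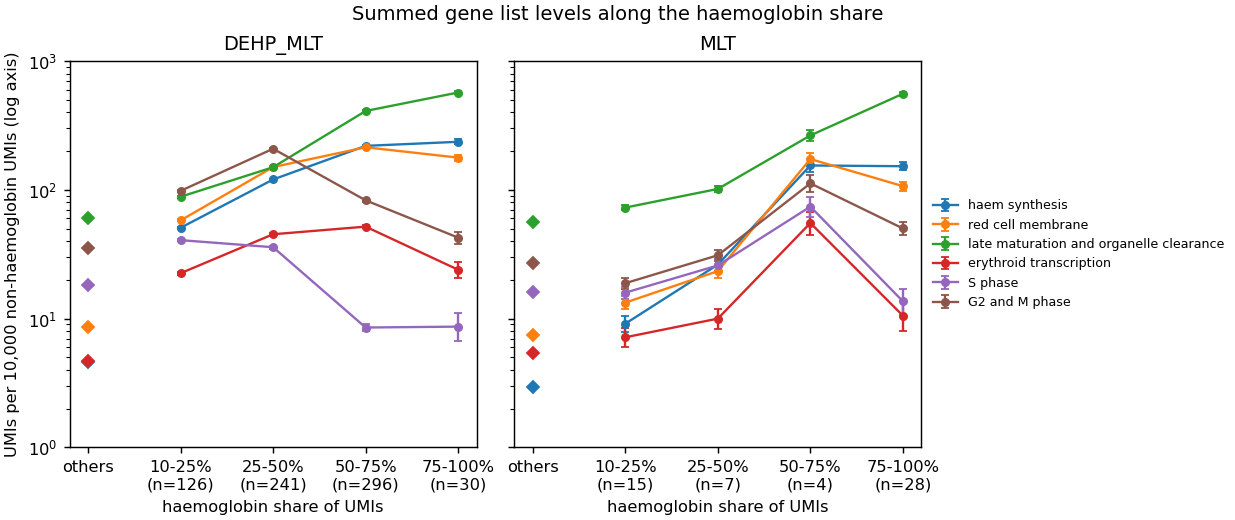
Summed levels of 6 gene lists in UMIs per 10,000 non-haemoglobin UMIs (log axis) by haemoglobin share, in the library labelled DEHP_MLT, left, and the library labelled MLT, right. Points are sums over barcodes with exact Poisson 95% intervals, diamonds are all other barcodes, and n is the number of barcodes. In DEHP_MLT the G2 and M phase list peaks at 208.5 between 25 and 50% while S phase genes drop to 8.52 at 50 to 75%, and haem synthesis genes climb to 236.1. MLT values below 75% rest on 15, 7 and 4 barcodes.

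In DEHP_MLT, S phase genes were lower above 50% haemoglobin than below it, and G2 and M phase genes were highest at 25 to 50%. S phase genes, 30 in all, summed to 40.7 (39.8 to 41.6), 35.8 (35.0 to 36.7), 8.52 (7.96 to 9.11) and 8.66 (6.72 to 11.0) in DEHP_MLT, against 18.2 in other barcodes. G2 and M phase genes, also 30, summed to 98.2, 208.5, 82.9 and 42.5, against 35.3. The S phase list was therefore highest in the lowest range, and the G2 and M phase list in the next. In the upper tertile of DEHP_MLT none of 24 S phase genes was higher and 23 were lower, with a median log2 ratio of -2.80, and none of 29 G2 and M phase genes was higher and 27 were lower, with a median of -2.77. Over all genes measured, 21.5% were higher and 45.2% lower in that tertile. The median over barcodes of the G2 and M phase sum was 89.1, 236, 34.8 and 39.4, against 9.04 in other barcodes, and at 50 to 75% it lay well under the sum. In MLT the G2 and M phase sums were 18.8, 31.0, 112.3 and 50.1, against 27.0 in other barcodes. Between the MLT tertiles, where 6.64% of all genes measured were higher and 7.21% lower, 5 of 18 G2 and M phase genes were higher and none lower, and of 22 S phase genes none was higher or lower past the fold. After thinning to 1000 non-haemoglobin UMIs, a UMI of Mki67 or Top2a, both made in dividing cells, was found in 54.8, 68.9, 25.3 and 3.33% of DEHP_MLT barcodes along the ranges (top range 0.0844 to 17.2), against 11.9% of other barcodes. Without thinning the shares were 81.0, 78.8, 50.7 and 20%, against 50.3%. In the top range of MLT the thinned share was 10.7% (2.27 to 28.2) and the unthinned 21.4%, against 14.6% and 43.0% of other barcodes. At this depth the 2 top ranges could not be told apart.

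Top2a, topoisomerase II, had 5.67, 9.41, 1.86 and 0.382 in DEHP_MLT, and Rrm2, which makes nucleotides for DNA synthesis, 2.98, 4.30, 0.864 and 0.255. Aurkb, a mitotic kinase, had 1.06 in the lower tertile of DEHP_MLT and no UMI in the upper tertile, at least 23.7-fold lower when 3 counts over the upper tertile are taken as the floor. Ube2c, which drives exit from mitosis, kept a level in the top range, with 8.84, 30.0, 19.3 and 21.0 in DEHP_MLT and 26.9 in the top range of MLT. Hist1h2ap, a replication-dependent histone gene, had 37.1, 76.0, 21.4 and 7.13 in DEHP_MLT, whereas H3f3a, a replication-independent one, had 30.6, 61.6, 43.3 and 56.8.

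Other lists held genes in both directions along the haemoglobin share. Over all genes measured between the DEHP_MLT tertiles, 21.5% were higher and 45.2% lower, and nothing is read from list counts near those shares. Of 10 genes of cell cycle exit, 3 were higher and 6 lower in the upper tertile of DEHP_MLT. Cdkn2d, an inhibitor of cyclin-dependent kinases, had 1.31, 6.76, 1.94 and 0.637 along the ranges, and Ccnd3, the D cyclin used by erythroblasts, 4.88, 4.87, 1.29 and 1.02. Of 17 immediate-early and heat shock genes 1 was higher and 13 were lower, with Jun at 14.95, 7.998, 6.42 and 5.48. Of 15 antioxidant genes 7 were higher and 5 lower, and of 15 histone genes 2 were higher and 10 lower. Of 9 interferon and MHC genes measured, 3 were higher and 2 lower.

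Among all genes, those with the highest ratios in the upper tertile of DEHP_MLT included Tmcc2, Tcp11l2, Xpo7, Slfn14, Tbcel, Dyrk3, Lpin2, Neat1 and Bcl2l1. Tmcc2 was 74.0 in the upper and 2.21 in the lower tertile, a log2 ratio of 5.06, and Neat1, a nuclear long non-coding RNA, 18.0 in the upper and 1.15 in the lower tertile. The lowest ratios belonged to Aurkb, Ccl4, Acp5, Top2a, Clspn, Kif15, Pclaf, Neil3, Fbxo5 and Atad2. Of these, 8 act in DNA replication, repair or division, while Ccl4, a chemokine, and Acp5, an acid phosphatase, are known from macrophages and osteoclasts. Ccl4 had 1.93, 0.0168, 0.0201 and 0 along the DEHP_MLT ranges and Acp5 2.29, 1.66, 0.291 and 0.255.

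Set against the other barcodes of DEHP_MLT, the genes with the highest ratios in members included Trim10, Alas2, Slc4a1, Slfn14, Trib3, Rsad2, Epb42, Hemgn, Isg20, Rhag, Samd11, Tspo2 and Car2. Of 4016 genes above the minimum, 23.4% were higher and 37.8% lower in members. All 22 red cell membrane genes measured and all 8 haem synthesis genes were higher, as a description of cells chosen by haemoglobin. Among them, Slc4a1 reached the minimum level in members only. Car2, carbonic anhydrase, was 30.8 in members and 0.470 in other barcodes.

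Rsad2, an interferon-response gene, was among them, and Isg15 belongs to the list of interferon and MHC genes. Of that list, 7 of 9 genes measured were higher and none lower in members than in other barcodes of DEHP_MLT, against 23.4% higher and 37.8% lower over all genes measured. In MLT, where 10.2% of all genes measured were higher and 8% lower in members, 2 of 19 were higher and 1 was lower. A gene was measured when either side reached a level of 0.5, so Isg15 was counted in DEHP_MLT only through the members. The counts of the libraries therefore cover different sets of genes, 9 and 19, and are not compared. Rsad2, viperin, had 8.61, 22.6, 73.8 and 36.2 along the DEHP_MLT ranges, against 0.313 in other barcodes, and Isg15, a ubiquitin-like modifier, 5.29, 14.9, 41.6 and 26.2, against 0.279. In the top range of MLT Rsad2 was 33.6 (28.9 to 38.8), against 0.707 in other barcodes, and Isg15 10.7 (8.16 to 13.8), against 0.653. Rsad2 in the top range of DEHP_MLT thus lay within the interval of MLT. Over all members, 2 of the 19 listed genes were higher and 11 lower in DEHP_MLT than in MLT. Over all genes measured in that comparison, 19.2% were higher and 32% lower. Among the lower were the MHC class II genes, which present antigen. H2-Ab1 had 5 UMIs in DEHP_MLT members, a level of 0.0104, and 54 in MLT members, a level of 1.34, and in other barcodes it was 0.0361 in DEHP_MLT and 2.33 in MLT. H2-Aa had 6 UMIs in DEHP_MLT members and 52 in MLT members, and H2-Eb1 had 9 in DEHP_MLT members and 59 in MLT members.

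For DEHP_MLT over MLT over all members, 19.2% of 4064 genes were higher and 32% lower past the fold, with a median log2 ratio of -0.30. All 8 haem synthesis genes, 21 of 22 membrane genes and all 29 G2 and M phase genes were higher. The 2 groups of members differed in their haemoglobin ranges, and the 22 MLT members under 50% haemoglobin held 332335 of the 404407 non-haemoglobin UMIs of the MLT members. When only members with at least 50% haemoglobin were compared, 326 barcodes in DEHP_MLT and 32 in MLT, 11.9% of 3462 genes were higher and 11.7% lower, with a median of -0.41. There, 6 of 8 haem synthesis genes were higher and none lower, and 17 of 22 membrane genes were higher and none lower. Of 22 S phase genes none was higher and 9 were lower, whereas of 23 G2 and M phase genes 7 were higher and 1 lower. Alas2 was 89.8 in DEHP_MLT and 93.9 in MLT at 50% haemoglobin and over, with overlapping intervals (88.0 to 91.6 and 87.0 to 101.3), although it was 37.2 in DEHP_MLT and 23.8 in MLT over all members. Members at 50% and over still differed in haemoglobin share, with a median of 65.4% in DEHP_MLT and 83.7% in MLT. Within 50 to 75% and within the top range, Alas2 was higher in DEHP_MLT, as given above. The S phase sum at 50% and over was 8.53 in DEHP_MLT and 27.9 in MLT, but 1 MLT barcode of 51.3% haemoglobin held 107 of the 201 S phase UMIs behind the MLT value. Without it, a check chosen after seeing the data, the MLT sum was 14.2 (11.4 to 17.3), and of 10 S phase genes then measured none was higher and 2 were lower in DEHP_MLT. In the top range alone the sum was 8.66 (6.72 to 11.0) in DEHP_MLT and 13.6 (10.7 to 17.1) in MLT.

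The 10 genes with the highest ratios of DEHP_MLT over MLT members were Retnlg, Stfa2, Ngp, Stfa2l1, Gata1, Hist1h2ak, Stfa3, Oasl1, S100a8 and Hist2h4, of which all but S100a8 had no UMI in MLT members. Retnlg, Stfa2, Ngp, Stfa2l1, Stfa3 and S100a8 are genes of neutrophils and their precursors. A summed neutrophil marker level of 50 or more was found in only 10 of the 693 DEHP_MLT members. S100a8 had 4950 UMIs in DEHP_MLT members and 5 in MLT members, at levels of 10.3 and 0.124, and it was 2.83 in other barcodes of DEHP_MLT and 1.29 in other barcodes of MLT. Gata1 had 706 UMIs in DEHP_MLT members and none in MLT members, at least 19.9-fold higher with 3 counts over the MLT members as the floor. At 50% haemoglobin and over the bound for Gata1 was 3.71-fold. The 10 lowest were H2-Ab1, H2-Aa, H2-Eb1, H2-Q7, Gbp4, Pcdh17, Pde2a, Rapgef5, Trp53i11 and Piezo2. Pcdh17 had 43 UMIs in DEHP_MLT members and 107 in MLT members, and no UMI in the 32 MLT members at 50% haemoglobin and over.

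Of the genes named so far and the antioxidant list, some stood apart in the top range, the one with the most MLT barcodes. The median haemoglobin share there was 78.8% in the 30 DEHP_MLT barcodes and 84.6% in the 28 MLT barcodes. Median genes there were 1060 in DEHP_MLT, which had no barcode under 1002 genes, and 900 in MLT. Mt1, a metallothionein that binds zinc and copper, was 54.2 (49.2 to 59.6) in DEHP_MLT and 2.72 (1.53 to 4.49) in MLT, and in other barcodes it was 6.21 in DEHP_MLT and 3.27 in MLT. Tmcc2 was 60.6 (55.3 to 66.3) in DEHP_MLT and 4.72 (3.08 to 6.92) in MLT. Trib3, a pseudokinase of the stress response, was 4.202 (2.89 to 5.90) in DEHP_MLT and 0 in MLT, where 3 counts would have allowed a level of up to 0.545. Bpgm stood the other way, at 92.3 (85.7 to 99.3) in DEHP_MLT and 132.8 (123.3 to 142.7) in MLT. With 1 library per group these differences cannot be told apart from differences between libraries.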

How the data were processed

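Ovaries of C57BL pups were profiled with the 10x Genomics 3' assay, 1 library per group. Per the submitters' processing notes, the authors used Cell Ranger, Seurat 4.2.0 and the build mm9. They deposited raw UMI counts per gene and barcode, whole numbers with no normalization. Totals were 117355739 UMIs in DEHP_MLT and 80657690 in MLT, and 21018 genes were in both tables.

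All deposited barcodes were used. No doublet caller was run, and no doublets were removed. Counts were summed over barcodes and divided by the non-haemoglobin UMIs of the same barcodes. Log2 ratios were taken after adding 0.01 per 10,000, which understates low genes. A gene was past the fold at 1.5-fold or more, at a level of at least 0.5 in either side and with exact Poisson 95% intervals apart. With 1 library per group no test was made. Where one side had no UMI, a floor of 3 counts over the group was used. Tertiles of members were split at 35.9 and 60.7% haemoglobin in DEHP_MLT. Alternatives that changed the members took new cuts from the DEHP_MLT members kept. The scripts were tested on simulated data.

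The members and gene lists were chosen with earlier results of these data known. Genes named are the haemoglobin, marker and haem synthesis genes, up to 4 members of each other list, and the 10 or 15 extreme ratios of each comparison, without mitochondrial, ribosomal protein, haemoglobin and unnamed genes. A few genes that this rule names are not reported here. Mki67, Top2a and Tfrc were named outside this rule after their values were seen. Python 3.11.15, numpy 2.4.6, scipy 1.17.1, pandas 2.3.3, Biopython 1.88 and matplotlib 3.10.9 were used. In all, 13 alternatives were tried, 4 of them added after seeing the data.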

Additional observations from a re-analysis of the deposited data

Results flagged for a closer look

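In 4 cases a summed list stood on opposite sides in the libraries when the upper tertile of the haemoglobin share was set against the lower tertile, with both counting intervals away from 0. The difference between the libraries was not tested, and the MLT tertiles hold 31 and 19 barcodes. G2 and M phase genes had a log2 ratio of -1.62 in DEHP_MLT and 1.26 in MLT, and histone genes -0.42 in DEHP_MLT and 0.50 in MLT. Surface epithelium markers had -0.64 in DEHP_MLT and 0.94 in MLT. Neutrophil markers had -0.51 in DEHP_MLT and 2.74 in MLT. The opposite sides did not hold under all alternatives. Per all UMIs, DEHP_MLT kept its side and the MLT values joined it, at -0.93 for G2 and M phase genes, -1.69 for histone genes and -1.23 for surface markers. At a threshold of 5000, G2 and M phase and histone genes did so too, with MLT values of -1.12 and -2.23. Surface and neutrophil markers in DEHP_MLT were 0.53 and 0.58 at that threshold, on the side of MLT. Without the 10 neutrophil-rich members the neutrophil value of DEHP_MLT was 1.38, also on the side of MLT. Of the 19 MLT barcodes in the lower tertile, 15 had Alas2 and Slc4a1 under 10 per 10,000, and 18 had markers of other ovarian cells at 10 or more.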

How the results depend on the processing

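No paired analysis was possible because each group has 1 library. No result of this report has a replicate spread, and the MLT members number 54. The neutrophil, gene floor, Alas2 and single-barcode checks were chosen after seeing the data. Log2 ratios are DEHP_MLT over MLT unless a tertile or the other barcodes are named, and each value belongs to DEHP_MLT where no library is named.

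The share ratio was 4.24 without members with Alas2 and Slc4a1 under 10, and 4.47 with 1 gene floor. Against 780 genes higher and 1301 lower over all members, a threshold of 5000 per 10,000 left 413 and 404, and leaving out members with markers of other ovarian cells at 10 or more, after which 2 MLT members remained, left 57 and 221. Lower genes were 422 per all UMIs and 2208 with no minimum. Along the share, 734 and 1544 became 125 and 342 at 5000, higher genes 174 per all UMIs, and lower genes 724 without other-cell markers. Tertiles were cut anew wherever the members changed. At 5000 both tertiles therefore lie at 50% haemoglobin or more and span a narrower range than the main ones. Members over other barcodes had 1520 lower genes, and 2383 at 5000.

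Between the libraries these sums turned round. The alternative without other-cell markers left 2 MLT members and took out 28 of the 30 DEHP_MLT barcodes of the top range. Iron transport was 0.36 over all members, -0.82 at 5000, -0.41 with equal weight per barcode, -0.65 without other-cell markers and -0.19 without low Alas2 and Slc4a1. Late maturation was 0.25, and -0.21, -0.29, -0.077 and -0.29 under the same 4. At 5000, red cell enzymes were -0.026 against 1.01, and S phase genes -1.71 against 0.59, with 107 of 201 MLT UMIs from 1 barcode. Pcdh17 was 1.92 at 5000, where MLT had no UMI. Without other-cell markers, haem synthesis was -0.043 against 1.52 and transcription factors -0.51 against 1.82. Without low Alas2 and Slc4a1, interferon and MHC genes were -0.19 against 0.17.

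Between tertiles, per all UMIs gave -0.69 for iron transport, -0.54 for transcription factors, -0.34 for interferon and MHC genes, and -0.66 for Uros. In MLT it gave -0.93 for G2 and M phase, -1.69 for histones and -1.23 for surface markers, and equal weight gave -0.0031 for MLT surface markers. At 5000, with the new tertiles, membrane genes were -0.025, transcription factors -0.29, interferon and MHC -0.32, surface markers 0.53, neutrophil markers 0.58, Ccl4 2.13, Uros -1.08 and Ppox -0.21. In MLT, G2 and M phase was -1.12 and histones -2.23, with 1 barcode, of 51.3% haemoglobin, in the lower tertile. Neutrophil markers were 0.25 at 500 and 1.38 without the 10 neutrophil-rich members. Surface markers were 0.22 without other-cell markers.

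For the cell cycle, S phase in members over other barcodes was 0.80, with 0.72 at equal weight, 0.84 at 500, -1.14 at 5000, 0.90 without low Alas2 and Slc4a1 and 1.57 without other-cell markers. Between tertiles it was -2.54, with -2.75 at equal weight, -0.49 at 5000, -2.71 without low Alas2 and Slc4a1 and -2.86 without other-cell markers. G2 and M phase over other barcodes was 1.94, with 2.21 at equal weight, 1.78 at 500, 1.03 at 5000, 2.05 without low Alas2 and Slc4a1, 1.96 without neutrophil-rich members and 2.65 without other-cell markers. Between tertiles it was -1.62, with -1.83, -1.14, -1.98, -1.89 and, without other-cell markers, -0.43. The cause of these moves was not tested. Genes with 3 or fewer UMIs on both sides under an alternative got no value there.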
